A study of Mus musculus with 4 samples.

Results

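The nuclei described here carry transcripts of T cell genes. They came from kidneys of C57BL/6 mice 22 weeks after birth, profiled as 4 single-nucleus libraries: untreated 1, untreated 2, losartan 1 and losartan 2. The untreated kidneys received no drug, and the others were treated with losartan, which blocks the angiotensin II type 1 receptor. The labels name no transgene or second agent, and no dose, route, length of treatment or sex of the animals is stated there. The kidneys were flash frozen and their nuclei loaded on a droplet platform, so each nucleus is a barcode with unique molecular identifiers (UMIs), 1 for each captured transcript. The labels do not say that the libraries of a group came from separate animals, so p-values measure only the spread between these libraries, which may be technical.

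The nuclei were chosen by a rule on their own counts. A barcode was kept if it had at most 15000 UMIs with at most 10% from mitochondrial genes, and at least 2 of 7 rule genes (Skap1, Themis, Cd247, Bcl11b, Il7r, Cd3e and Cd3g) had a UMI. It also needed 0 UMIs in the macrophage genes Csf1r and Adgre1 and in the B cell genes Bank1 and Pax5. At most 2 UMIs could come from Slc12a1 of the thick ascending limb and Flt1 of endothelium together, and at most 4 from the proximal tubule transporters Slc5a12, Slc13a3, Slc7a13 and Slc22a6. The rule selected 363 of 37959 nuclei within the UMI and mitochondrial limits, out of 39654 deposited barcodes. By library these were 88 nuclei in untreated 1, 206 in untreated 2, 32 in losartan 1 and 37 in losartan 2, so untreated 2 alone held 56.7% of them. The working name of the group is T and NK cell nuclei. By the values below, other T cell transcripts were common in the 218 nuclei with 3 or more rule genes. They were uncommon in the 145 nuclei with exactly 2 rule genes. The NK markers Ncr1 and Klrb1c were near absent, while Klrk1 had a UMI in 51 nuclei, so the group is called the selected nuclei.

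T cells recognise peptides through an antigen receptor whose signal is carried into the cell by the CD3 chains and the zeta chain, encoded by Cd247. The kinase Lck phosphorylates these chains, and the kinase Zap70 and the adaptor Lat pass the signal on. Natural killer (NK) cells lack this receptor and use receptors such as those encoded by Ncr1 and Klrb1c, although Cd247 and Skap1 are not restricted to T cells. In the kidney, T cells sit between the tubules, where helper cells, cytotoxic CD8 cells and regulatory cells have been studied in hypertension and injury, the settings in which angiotensin receptor blockers are used.

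The rule genes differed in how often they also had a UMI in proximal tubule nuclei. Cd3e, a CD3 chain, had a UMI in 25.1% of the selected nuclei and in 0.489% of proximal tubule nuclei, here nuclei with over 4 UMIs of the 4 tubule transporters. For Cd247 the shares were 54.5% and 1.71%, and for Bcl11b, a transcription factor of T cell commitment, they were 72.2% and 44.8%. Transcripts of Bcl11b were therefore widespread outside the selected nuclei, while those of Cd3e and Cd247 were not. Whether tubule nuclei transcribe Bcl11b themselves was not tested. Proximal tubule nuclei were deeper, with median UMI counts of 4902 to 6330 per library against 3100 to 3566 in the selected nuclei. The promoters of these 3 genes are shown because the genes span that range, from 250 bases before to 50 bases after the RefSeq start (GRCm38.p6, each written 5′ to 3′ on the strand of its gene). The Cd3e window is chr9:45009562-45009861 on the minus strand, the Cd247 window chr1:165788431-165788730 on the plus strand and the Bcl11b window chr12:108003365-108003664 on the minus strand. Capitals mark CTTCCTG, which holds the core bound by ETS factors, a family that includes the T cell regulator Ets1.
Cd3e: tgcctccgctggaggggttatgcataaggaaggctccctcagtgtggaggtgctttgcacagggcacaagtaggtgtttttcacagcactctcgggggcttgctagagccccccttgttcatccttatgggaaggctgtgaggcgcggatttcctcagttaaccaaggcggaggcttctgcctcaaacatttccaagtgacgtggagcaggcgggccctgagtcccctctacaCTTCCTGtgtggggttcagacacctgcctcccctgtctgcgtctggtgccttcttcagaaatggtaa
Cd247: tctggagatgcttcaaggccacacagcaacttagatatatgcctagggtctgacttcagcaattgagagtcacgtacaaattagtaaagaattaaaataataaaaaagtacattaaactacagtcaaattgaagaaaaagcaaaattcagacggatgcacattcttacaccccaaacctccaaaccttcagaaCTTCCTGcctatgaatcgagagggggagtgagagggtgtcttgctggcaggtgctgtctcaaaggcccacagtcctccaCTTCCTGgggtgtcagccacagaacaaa
Bcl11b: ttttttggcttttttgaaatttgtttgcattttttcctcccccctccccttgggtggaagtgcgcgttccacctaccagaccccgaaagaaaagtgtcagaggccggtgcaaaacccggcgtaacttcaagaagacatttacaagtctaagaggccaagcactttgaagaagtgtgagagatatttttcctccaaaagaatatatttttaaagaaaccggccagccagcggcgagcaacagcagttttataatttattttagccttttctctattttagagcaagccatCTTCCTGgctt
The motif was chosen after the sequences were seen and was searched on both strands, the reverse strand as CAGGAAG. It occurred once in the Cd3e window, at 2 places in the Cd247 window and once in the Bcl11b window, each time on the strand shown. Of the 7 rule genes 6 had a RefSeq promoter, and 4 of these 6 genes held the motif. Counted over promoters, of which a gene such as Themis can have several, 13.3% of all 32851 of this length held the motif. Both a gene with few and a gene with many transcripts in tubule nuclei held it.

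The number of rule genes separated nuclei with and without other T cell transcripts. The following genes were not part of the rule, and their shares are descriptions, since the nuclei were chosen on genes of the same cells. Ptprc, which encodes the pan-leukocyte antigen CD45, had a UMI in 41 of 145 nuclei with exactly 2 rule genes, in 35 of 41 nuclei with 3 and in 173 of 177 nuclei with 4 to 7. Lck, the T cell receptor kinase, was found in 17, 22 and 107 of the same 3 sets, and Cd6, a T cell co-receptor, in 4, 15 and 68. Just outside the rule, 1969 nuclei met every other limit but had a UMI in only 1 rule gene, and of these 162 had Ptprc, 18 had Lck and 10 had Cd6. The step thus lay between 2 and 3 rule genes. The nuclei with exactly 2 were deeper (median 3756 UMIs) than those with 3 (2792) or with 4 to 7 (2960). The most common pair among nuclei with exactly 2 was Skap1 with Bcl11b, in 57 nuclei.

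**Figure D1:**
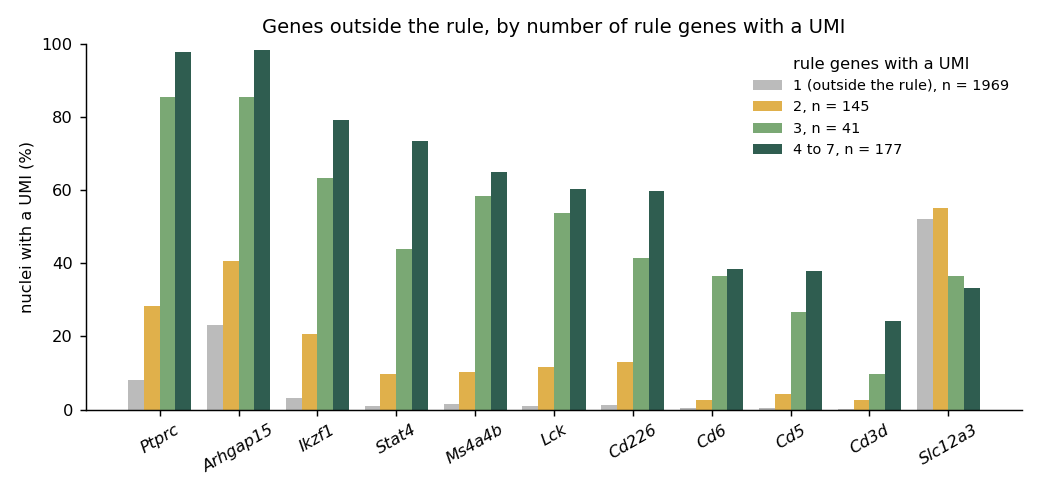
Share of nuclei (vertical axis, percent) with a UMI of 10 leukocyte and T cell genes and of Slc12a3, by number of rule genes with a UMI (colour; n in the key), pooled over the 4 libraries. Lck rises from 11.7% at 2 rule genes to 53.7% at 3, while Slc12a3 is highest, at 55.2%, in the nuclei with 2.

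Transcripts of other kidney cells were present in part of the selected nuclei. Slc12a3, the salt transporter of the distal convoluted tubule, which the rule does not limit, had 4142 UMIs in 154 nuclei, and 73.8% of these UMIs lay in nuclei with exactly 2 rule genes. Counting nuclei with at least 10 UMIs of Slc12a3, of podocyte genes, of fibroblast and mural genes or of collecting duct genes, a set chosen after these values were seen, gave 59 of 145 nuclei with exactly 2 rule genes (40.7%) and 41 of 218 with 3 or more (18.8%). The macrophage genes Csf1r and Adgre1 and the B cell genes Bank1 and Pax5 were at 0 by the rule. The plasma cell gene Jchain was not absent, with 134 UMIs in 46 nuclei. Scrublet marked 28 of the 363 selected nuclei as doublets, 22 of them among the 206 in untreated 2. Among all deposited barcodes it marked 717 of 9326, 821 of 10132, 777 of 9854 and 856 of 10342. The pooled share in the selected nuclei was thus near that of all barcodes. In all libraries but untreated 1 the number marked was set by a fixed rate. Between 21 and 29 barcodes were shared by any pair of libraries, and 1 of these shared barcodes belonged to a selected nucleus.

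The untreated libraries held more selected nuclei than the losartan libraries, and they also differed from each other. The share of all passing nuclei was 0.963% in untreated 1 (95% exact binomial interval 0.773 to 1.19) and 2.16% in untreated 2 (1.88 to 2.47). With losartan it was 0.339% (0.232 to 0.479) and 0.376% (0.265 to 0.517). These intervals and those below cover counting error only. Both untreated shares lay above both losartan shares, and the untreated libraries were further apart (1.56% ± 0.846, SD, n = 2) than the losartan libraries (0.357% ± 0.0257, SD, n = 2). This difference was known when the nuclei were chosen, so it is given without a test. Among nuclei with 3 or more rule genes the shares were 0.438% and 1.45% in the untreated libraries and 0.159% and 0.254% with losartan. There the exact binomial intervals of untreated 1 (0.313 to 0.596) and losartan 2 (0.164 to 0.374) overlapped.

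**Figure D2:**
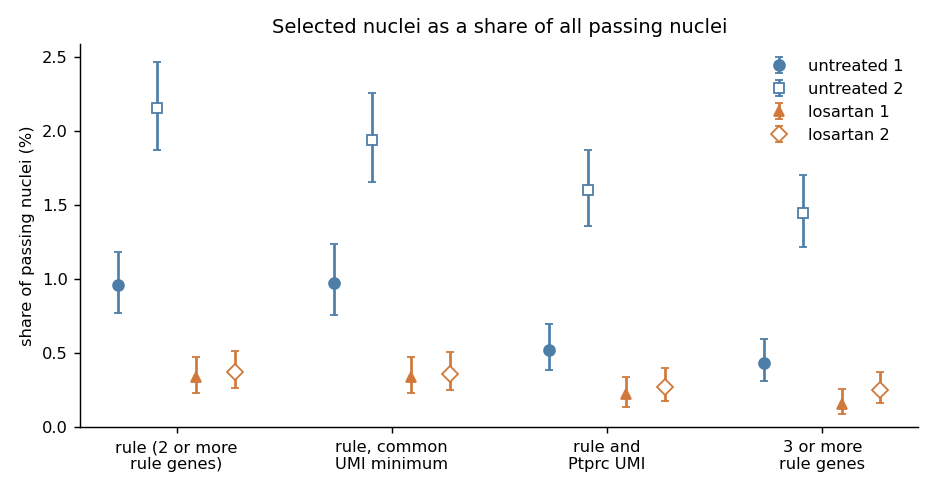
Share of all passing nuclei (vertical axis, percent) that met the rule, for the rule as given, among passing nuclei with at least 2444 UMIs only, with a Ptprc UMI, and with 3 or more rule genes. Points are libraries and bars 95% exact binomial intervals, which cover counting error only. Untreated 2 is highest in each set (2.16% to 1.45%) and both losartan libraries lie below untreated 1.

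The makeup and the depth limits of the libraries moved with these shares. Proximal tubule nuclei made up 29.98% and 21.2% of passing nuclei in the untreated libraries and 56.4% and 45.0% with losartan. With proximal tubule nuclei left out of the total, the selected nuclei were 1.38% and 2.74% against 0.778% and 0.683%. The fewest UMIs of any deposited barcode were 1839, 2081, 2444 and 2234 in untreated 1, untreated 2, losartan 1 and losartan 2, and the selected nuclei reached down to these limits. At a common minimum of 2444 UMIs, chosen after seeing the data, the shares were 0.977% and 1.94% against 0.339% and 0.364%, so the order was the same with that limit equal. Without the limits on tubule and endothelial UMIs the rule took 1145 nuclei, and the shares were 3.14% and 3.96% against 2.46% and 2.52%. That set had the same order and a smaller gap.

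**Figure D3:**
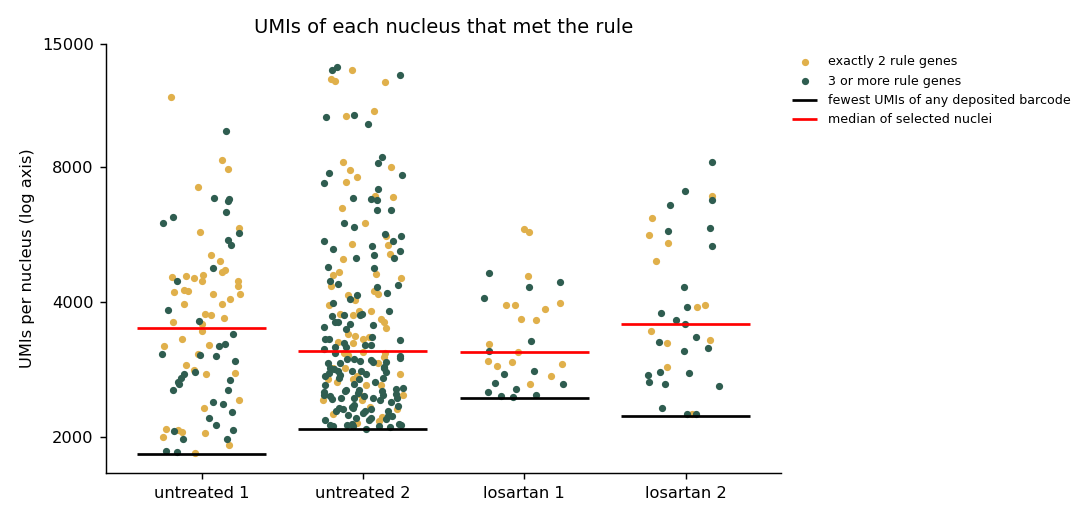
UMIs of every selected nucleus (log axis) by library, coloured by the number of rule genes with a UMI. The black line is the fewest UMIs of any deposited barcode in that library and the red line the median of the selected nuclei. Nuclei crowd just above the black line in each library, which lies at 1839 to 2444 UMIs.

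Set against other leukocytes, the gap between the groups was smaller. For every 100 macrophage and dendritic nuclei there were 20.9 and 34.9 selected nuclei in the untreated libraries and 18.6 and 17.7 with losartan. Per 100 B nuclei there were 587 and 240 against 246 and 247, on only 15, 86, 13 and 15 B nuclei. Under the rule as given, the losartan values lay below both untreated values for macrophages and between them for B nuclei. The log2 ratio of losartan to untreated was -0.57 and -0.61. These ratios count the same nuclei as the share and are given without a test for the same reason. Left without untreated 1, the ratio to B nuclei became 0.04, and without untreated 2 the ratio to macrophages became -0.20. With every nucleus thinned to 500 UMIs both log2 ratios turned, to 0.51 for macrophages and 0.55 for B nuclei, but the groups overlapped. The thinned values per 100 macrophage and dendritic nuclei were 34.8 and 61.0 untreated against 75.0 and 57.8 with losartan. Per 100 B nuclei they were 325 and 289 against 233 and 867, on 12, 45, 9 and 3 B nuclei. Unthinned and with 3 or more rule genes, there were 9.50 and 23.4 per 100 macrophage and dendritic nuclei untreated against 8.72 and 12.0 with losartan. With a Ptprc UMI required these values were 11.4 and 25.9 against 12.2 and 12.9. In both sets the groups overlapped.

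Genes outside the rule that set the selected nuclei apart were mostly receptors and signal carriers of T cells. Ranked by the ratio of CPM (the UMIs of a gene scaled to 1000000 UMIs of those nuclei) over all other nuclei, the leading genes included, among 4002 genes with at least 20 UMIs in the selected nuclei of each untreated library, Cd6, Cd5, Icos, Stat4, Cd226, Ms4a4b, Lck, Tespa1, Gimap3, Ikzf3, Itgb7, Itgal, Itga4 and Ptpn22. They are listed as a description, with no test. Cd6, a co-receptor of T cells, stood at 61.2 CPM in untreated 1, 117 in untreated 2, 63.8 in losartan 1 and 98.3 in losartan 2, against 0.736 to 2.55 CPM in all other nuclei of the same libraries. Cd5, another such co-receptor, was at 58.3, 114, 100.2 and 72.1 CPM, against 0.799 to 2.32. Stat4, which carries interleukin-12 signals, was at 120, 394, 164 and 236 CPM, and 400 of its 428 UMIs lay in nuclei with 3 or more rule genes. Each of these 3 genes was highest in untreated 2 and lowest in untreated 1, the library in which 45.5% of selected nuclei had 3 or more rule genes, against 67.0% in untreated 2.

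Some of these genes were shared with B nuclei and some were not. Ikzf3, a lymphoid transcription factor, was at 259 CPM in the selected nuclei, 328 in B nuclei and 3.55 in macrophage and dendritic nuclei. Itga4, an integrin chain for entry into tissue, was at 519, 387 and 66.0 CPM in the same order. Cd5 (95.2 CPM) was at 3.58 CPM in B nuclei and Lck (206 CPM) at 7.16. Over 16 profiles, the selected, B, macrophage and all remaining nuclei of each library, the genes whose log2 CPM (with 10 CPM added) followed the summed rule genes most closely were Camk4, Prkcq, Cxcr6, Abcb1a, Lat, Zap70, Sla2, Cd6, Cd4 and Ctsw. Their Pearson r ran from 0.948 to 0.969 among 9728 genes compared. Of these profiles 4 were chosen for having the rule genes, so a high r was fixed by the choice for any gene high in the selected nuclei. The profiles also share libraries and depth, and the r values are a description.

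Transcripts of helper and cytotoxic T cell genes were seen in separate nuclei. Cd4, the co-receptor of helper cells, had a UMI in 48 selected nuclei and Cd8a or Cd8b1, the chains of the co-receptor of cytotoxic cells, in 46, and 0 nuclei had a UMI of both. Proximal tubule nuclei had a UMI of Cd4 in 0.517%, of Cd8a in 0.248% and of Cd8b1 in 0.324%. Most selected nuclei had a UMI of neither, so the lack of overlap in UMIs does not exclude nuclei that express both, and their number was not tested. Of the nuclei with Cd4, 44 had 3 or more rule genes, as did 45 of those with Cd8a or Cd8b1, so few of either were in the doubtful set. By library, Cd4 was in 9, 33, 3 and 3 nuclei and Cd8a or Cd8b1 in 6, 36, 3 and 1. The remaining 269 nuclei had a UMI in neither, 129 of them with 3 or more rule genes. Ccl5, a chemokine of effector cells, was found in 20 of 46 nuclei with Cd8a or Cd8b1 and in 11 of 48 with Cd4. Nkg7, a protein of cytotoxic granules, was in 14 and 4 of them. Foxp3, the factor of regulatory T cells, was in 10 nuclei, 0 of them with Cd8a or Cd8b1, and all 10 had a UMI of Ikzf2, which 40.8% of all selected nuclei also had.

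Pdcd1 and Ccl5 transcripts lay mostly in untreated 2, which also held most of the nuclei. Pdcd1, the checkpoint receptor PD-1, had 0 UMIs in untreated 1, 48 in untreated 2, 0 in losartan 1 and 1 in losartan 2, and 24 of the 25 nuclei with it came from untreated 2. Ccl5 had 7, 258, 5 and 12 UMIs in 5, 44, 3 and 4 nuclei, and a single nucleus of untreated 2 held 78 of them. Among nuclei with 3 or more rule genes, Pdcd1 was in 16.7% of those in untreated 2 and Ccl5 in 29.7%, while Ccl5 was in 10.0% in untreated 1, in 3 of 15 nuclei in losartan 1 and in 4 of 25 in losartan 2. The checkpoint gene Ctla4 did not share this pattern, at 17.9, 52.3, 87.8 and 6.46 normalised CPM in untreated 1, untreated 2, losartan 1 and losartan 2. Only untreated 2 stood apart for Pdcd1, and the other untreated library was at 0. Proximal tubule nuclei had a UMI of Pdcd1 in 0.124% and of Ccl5 in 0.958%.

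**Figure D4:**
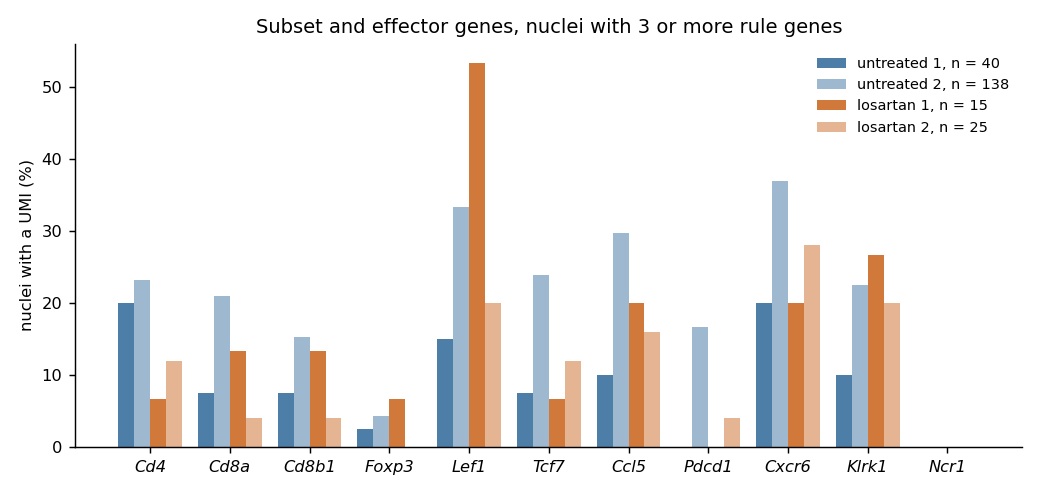
Share of nuclei with 3 or more rule genes (vertical axis, percent) with a UMI of subset and effector genes, by library; n is the number of nuclei. With 15 nuclei in losartan 1 and 25 in losartan 2, a single nucleus moves their bars by several percentage points. Pdcd1 is seen in untreated 2 (16.7%) and in 1 nucleus of losartan 2.

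Genes of naive and recirculating cells were present to unequal degrees. Il7r, a rule gene, had 464 UMIs. Igfbp4 was in 17.6% of selected nuclei and in 59.2% of proximal tubule nuclei, so its share is not read as a T cell trait. The T cell transcription factor Lef1 had a UMI in 75 selected nuclei and its relative Tcf7 in 41, while Ccr7, which directs cells to lymph nodes, was in 3. Lef1 stood at 29.9, 128, 184 and 64.6 normalised CPM in untreated 1, untreated 2, losartan 1 and losartan 2, with overlapping groups. Of the tissue retention genes, Cxcr6, a chemokine receptor of resident cells, was in 77 nuclei, Rgs1 in 32, Itgae in 24 and Cd69 in 18. Rgs1, which restrains chemokine receptors, had 12 and 29 UMIs in the untreated libraries and 1 in each losartan library, too few to be tested.

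Among markers of NK cells, Ncr1, Klrb1c and Klra8 were near absent, while Klrk1 and Klrd1 were not. Ncr1 was found in 2 selected nuclei, neither with 3 or more rule genes, Klrb1c in 4 and Klra8 in 0, and the pore-forming Prf1 in 8. Klrk1, which CD8 T cells also carry, was in 51 nuclei and Klrd1 in 20. Of the nuclei with Klrk1, 32 had no UMI of Cd4, Cd8a or Cd8b1. At least 2 of 6 NK markers were seen in 20 nuclei, and only 4 of these had no UMI of Cd3d, Cd3e, Cd3g, Themis or Bcl11b. The rule asks for T cell genes and so takes few nuclei without them. Of the cytokines, Il17a, Il13 and Il22 had 0 UMIs, Ifng 2 and Il2 12. Ltb, which encodes lymphotoxin beta, had 99 UMIs in 63 nuclei, Tnfsf8, the CD30 ligand, 88 in 34, and Tgfb1 77 in 59. At least 4 of 11 division genes such as Mki67 and Top2a were seen in 15 nuclei, 13 of them in untreated 2. The antigen receptor constant genes Trac, Trbc1, Trbc2 and Trdc were not analysed here, so gamma-delta and alpha-beta cells were not told apart.

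Within the selected nuclei, losartan and untreated libraries were compared on UMIs summed per library. The sums were 343009 and 844970 UMIs in the untreated libraries and 109759 and 152558 with losartan. Of 5723 genes tested with edgeR's quasi-likelihood test, 1 was called at an adjusted p under 0.05 (0.0175%), and 228 had an unadjusted p under 0.05. The called gene was Sntg1, which encodes gamma-1 syntrophin, an adaptor of the dystrophin complex (chr1:8361475-9299878, GRCm38, minus strand). It had 144 and 290 UMIs in the untreated libraries and 0 and 1 with losartan, or 430, 353, 0 and 6.46 normalised CPM. Both losartan libraries lay below both untreated ones, as they did for 20.5% of the 5723 genes tested. The log2 difference was -6.52 ± 0.63 (SE), with an adjusted p of 0.0345 (edgeR). The ratio of untreated to losartan CPM was 95.8, with a 95% counting interval of 17.1 to 3794.

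The UMIs of Sntg1 lay mostly in nuclei with few T cell transcripts. Nuclei with exactly 2 rule genes held 70.8% of them, and 5 nuclei held 69.2%. With only nuclei of 3 or more rule genes it had 53, 73, 0 and 1 UMIs, a log2 difference of -5.03 ± 1.01 (SE) and an adjusted p of 0.973 (edgeR), and with a Ptprc UMI required the log2 difference was -5.10 and the adjusted p 0.999. The direction was thus the same without the nuclei with exactly 2 rule genes, and the call was not. In all other nuclei of the same libraries it stood at 183 and 329 normalised CPM untreated and 31.4 and 74.2 with losartan. Kcnip4, a potassium channel subunit, had the next smallest p among lower genes, with 78, 327, 1 and 3 UMIs and an adjusted p of 0.136, and a single nucleus held 41.1% of its UMIs. The number of calls was 163 without untreated 1, 42 without untreated 2, 2 without losartan 1 and 0 without losartan 2, where in each case the lone library was assumed to vary like the other group.

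The other genes with the smallest p did not pass the test. Gm43291, a long non-coding RNA gene at chr6:70719074-70740554 (GRCm38, plus strand), had 110, 1640, 10 and 6 UMIs and an adjusted p of 0.847 (edgeR). Its span holds the immunoglobulin kappa constant gene Igkc (chr6:70726435-70726966), and a single nucleus of untreated 2 held 1019 of its 1766 UMIs. That nucleus also had 44 UMIs of Jchain, 20 of Mzb1 and UMIs of 5 rule genes, so it carried plasma cell and T cell transcripts together. Gm26870 and Lingo2 had 0 and 1 UMIs with losartan against 96 and 68, and 55 and 54, untreated. In the other direction stood 5 genes: Kap, Inmt, Slc17a3, Slc22a30 and Cml1. Kap, an androgen-regulated transcript of the proximal tubule, was at 806 and 732 normalised CPM untreated and 3198 and 2294 with losartan (adjusted p 0.847), and in proximal tubule nuclei of the same libraries at 1493, 1444, 2881 and 2800 CPM. Slc17a3, a tubule transporter, was at 149 and 105 against 343 and 349.

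**Figure D5:**
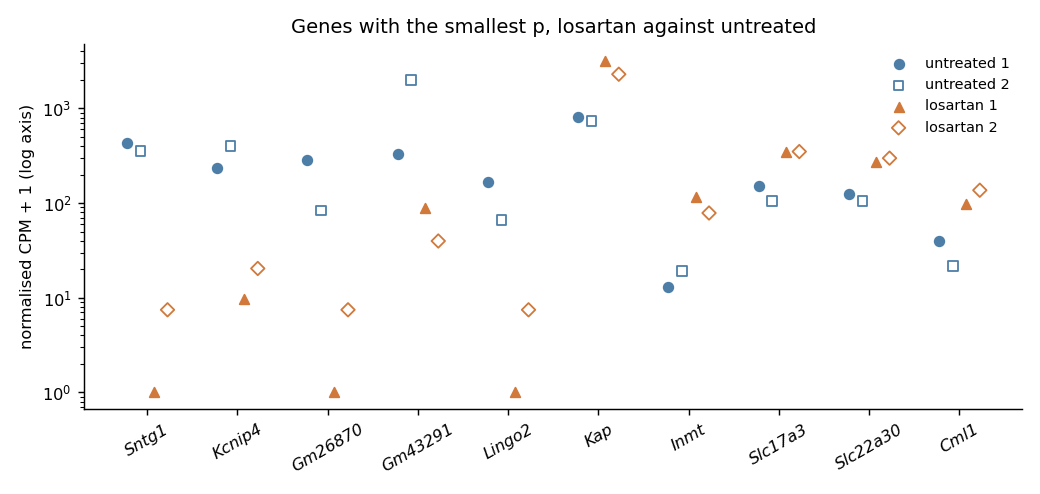
Normalised CPM plus 1 (log axis) in the summed selected nuclei of each library, for the 5 lower and 5 higher genes with the smallest p. Sntg1 is at 430 and 353 in the untreated libraries and at 0 and 6.46 with losartan; of the 10 genes it alone passed the adjusted test.

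Transcripts of the proximal tubule took a larger part of the UMIs of the selected nuclei in the losartan libraries, and none passed the test. The 12 proximal tubule genes made up 0.340% and 0.293% of their UMIs in the untreated libraries and 0.752% and 0.587% with losartan, all 12 were tested, and 0 were called. Higher values with losartan were seen for 11 of them, with a median log2 difference of 0.69 against -0.01 over all 5723 genes. Of the 12, Slc5a12, Slc13a3, Slc7a13 and Slc22a6 are capped by the rule, so these counts rest in part on values that the rule used. The defining macrophage markers were at 0 by the rule, the rest of that list summed to between 0.0620% and 0.0697% of UMIs, and the B and plasma list to between 0.0328% and 0.0548%. The part of these transcripts in the losartan differences was not tested.

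Genes of the T cell receptor pathway gave no call. Of 25 signalling genes 23 were tested and 0 were called, with a median log2 difference of -0.15. That list holds the rule genes Skap1 and Themis, and the list of transcription factors below holds Bcl11b. Of the 11 receptor and CD3 genes 4 were in the files and 3 were tested, with log2 differences of -0.24 for Cd247, -0.91 for Cd3g and -1.45 ± 0.55 (SE) for Cd3e, all with an adjusted p of 1 (edgeR). These 3 genes are part of the rule. Cd3e stood at 65.7 and 106 normalised CPM untreated and 43.9 and 19.4 with losartan, on 22, 87, 5 and 3 UMIs. Lck, at 98.5, 274, 123 and 175 normalised CPM, and Prkcq, a kinase of the same pathway, at 212, 387, 413 and 246, overlapped between the groups. Among 18 lymphoid transcription factors 15 were tested and 0 called (median 0.03), and among 26 cytokine receptor and JAK-STAT genes 18 were tested and 0 called (median -0.18). Icos, a costimulatory receptor, was at 74.6 and 64.4 normalised CPM untreated and 43.9 and 12.9 with losartan (adjusted p of 1), on 25, 53, 5 and 2 UMIs. For the other T, NK and effector lists at most 5 genes each passed the filter on low counts, and 0 were called.

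Agtr1a, which encodes the receptor that losartan blocks, gave no call. It had a UMI in 14.3% of the selected nuclei and in 28.1% of proximal tubule nuclei, which are deeper, so its share alone is not read as expression by lymphocytes. Its level was 53.7, 58.4, 79.1 and 162 normalised CPM in untreated 1, untreated 2, losartan 1 and losartan 2, on 18, 48, 9 and 25 UMIs. The losartan libraries were the higher ones, with a log2 difference of 1.20 ± 0.42 (SE) and an adjusted p of 1 (edgeR). Among nuclei with 3 or more rule genes it had 5, 25, 7 and 22 UMIs, with a log2 difference of 2.15 ± 0.47 (SE) and an adjusted p of 0.973. Macrophage and dendritic nuclei of the same libraries stood at 157, 138, 223 and 327 CPM and proximal tubule nuclei at 71.4, 70.1, 75.6 and 79.0, so losartan 2 was also the highest library in both. On the same scale, nuclei with 3 or more rule genes stood at 33.7, 47.5, 148 and 219 CPM. B nuclei stood at 259, 168, 203 and 534 CPM, on 15, 65, 10 and 34 UMIs. The source of these transcripts was not tested. Agtr2 and Mas1, which encode other angiotensin peptide receptors, had 0 UMIs.

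Summed over all passing nuclei, most T cell genes were lower with losartan, and none passed the adjusted test. Of 18360 genes 0 were called with edgeR (0.0%), and 3343 had an unadjusted p under 0.05. DESeq2, run without the filter on low counts, called 1157 of 23655 genes. In such sums fewer cells of a type and less RNA per cell cannot be told apart. Both losartan libraries lay below both untreated ones for 24 of 25 T cell receptor signalling genes, against 26.7% of all genes tested. Other lists were less uniform. Of 18 lymphoid transcription factors 10 were lower and 2 higher without overlap. Of 9 naive and recirculating genes 4 were lower and 3 higher without overlap. Lck stood at 5.46 and 9.18 normalised CPM untreated and 2.73 and 3.44 with losartan, a log2 difference of -1.25 ± 0.31 (SE; adjusted p 0.193, edgeR). Cd4 stood at 1.999 and 2.37 against 0.744 and 0.785. The median log2 difference of the 25 genes was -1.17, against -0.01 over all genes. Macrophage and dendritic genes, 12 of 14 of them lower without overlap, had a median of -1.30. The rule gene Bcl11b went the other way, at 70.3 and 71.6 against 92.6 and 79.7 normalised CPM. Lower sums were not limited to leukocyte genes, since 5 of 5 podocyte genes were lower without overlap (median -0.80). Proximal tubule nuclei were a larger part of the losartan libraries. Of 12 proximal tubule genes 12 were higher without overlap (median 0.87), against 27.1% of all genes tested. These sums contain the selected nuclei and share their libraries, and the difference in number of those nuclei was already known.

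The losartan difference was also set against that in all other nuclei of the same libraries, as an interaction term. The makeup of those other nuclei differed between the groups. Macrophage and dendritic nuclei were 4.61% and 6.19% of passing nuclei untreated and 1.82% and 2.12% with losartan. Fewer cells of a type and a lower level per cell therefore cannot be told apart among the other nuclei. Of 17253 genes 17 were called (0.0985%), 8 with a higher and 9 with a lower difference in the selected nuclei, and the median over all genes was -0.22. Camk4, a calcium-dependent kinase of T cell activation, was at 127 and 314 normalised CPM untreated and 81.4 and 126 with losartan in the selected nuclei, while in all other nuclei it was at 6.57 and 8.42 against 29.1 and 9.28. The difference in effect was -2.08 ± 0.42 (SE; adjusted p 0.00242, edgeR), and with untreated 2 or losartan 1 left out the adjusted p was 1 or 0.830. Cd84, a receptor of the SLAM family, was at 60.6 and 119 against 114 and 169 in the selected nuclei and at 9.002 and 17.8 against 4.05 and 4.12 elsewhere, a difference of 2.38 ± 0.48 (SE; adjusted p 0.00242). With 3 or more rule genes its adjusted p was 0.0372, and it was 0.380 without untreated 2 and 0.135 without losartan 2. With 3 or more rule genes 7 genes were called, 4 of them (Dgkb, Ltc4s, Cd84 and Slc8a1) among the 17.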

How the data were processed

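Nuclei of 4 kidney libraries, 2 untreated and 2 losartan, were analysed from the UMI count matrices that the authors deposited, which are whole-number counts per gene and barcode and not normalised. Cell Ranger 5.0.0 is named per the file headers. The submitters' processing notes list mm10 and Bowtie 0.12.2 with no role, and the annotation behind the counts is not stated. Total counts were 42290414, 54971880, 58820323 and 59078762 per library (untreated 1 and 2, losartan 1 and 2) over 27998 genes. Raw counts of the selected nuclei were summed per library and tested with edgeR 4.0.16 (quasi-likelihood F test, TMM factors, filterByExpr, treatment only, Benjamini-Hochberg adjustment over all genes tested). Normalised CPM in the losartan comparisons uses all UMIs and TMM factors over all genes, before the filter on low counts. The fits use TMM factors over tested genes, and other CPM uses all UMIs without such factors. The difference between selected and all other nuclei was an interaction term with library as a factor. DESeq2 1.42.0 was an alternative, with others listed in the closing section. The main edgeR fits, and not their alternatives, were run on simulated counts with the same dispersion for every gene. Counts held by few nuclei were not simulated, so those runs do not show how the fits handle them. Leaving out 1 library assumes that the lone library varies like the other group. Doublets were scored with Scrublet (scanpy 1.11.5) and kept in the main results; it marked under 0.5% of nuclei by itself in 3 libraries, where the highest scores at 0.8% per 1000 nuclei were taken instead. Intervals on shares are exact binomial at 95%. Named genes were the rule genes, members of 16 lymphocyte and 10 other lists, the 15 leading and 10 most alike genes, and for each fit up to 10 called genes per direction by size of change or, with under 5 called, the 5 with the smallest p. Coordinates are from GENCODE vM21 (GRCm38), which matched 27645 of the gene identifiers, and promoters from RefSeq (GRCm38.p6). The 9 listed genes absent from the matrices were not analysed here, and some genes the rule names are not reported here. The members and lists were chosen with earlier results of these data known.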

Additional observations from a re-analysis of the deposited data

Results flagged for a closer look

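For 17 genes the losartan difference in the selected nuclei was not the same as in all other nuclei of the same libraries, by an interaction term in edgeR (adjusted p under 0.05). Those other nuclei differed in makeup between the groups, so cell numbers and level per cell cannot be told apart there. The difference between the effects, selected minus other nuclei on the log2 scale, was positive for 8 genes: Dgkb at 3.72, Kcnh7 at 2.97, Ms4a6c at 2.45, Cd84 at 2.38, Ltc4s at 2.33, Gas7 at 2.11, Kcnq5 at 1.58 and Slc8a1 at 1.21. It was negative for 9 genes: Sntg1 at -4.55, Lingo2 at -3.91, Slc7a12 at -3.85, St8sia6 at -3.00, Kcnip4 at -2.76, Ttc39c at -2.11, Camk4 at -2.08, Gm16685 at -1.68 and Tnfaip8 at -1.30. The median over all 17253 genes tested was -0.22, and -0.12 with DESeq2's size factors, with which 14 genes were higher and 9 lower.

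Several of these genes rested on few nuclei. Dgkb, a diacylglycerol kinase, had 5, 6, 1 and 28 UMIs in untreated 1, untreated 2, losartan 1 and losartan 2, and a single nucleus held 42.5% of them. Of the UMIs of Kcnq5, a potassium channel, 711 of 820 lay in nuclei with 3 or more rule genes, as did 331 of 354 for Camk4 and 104 of 125 for Ttc39c. By contrast 94 of 110 UMIs of Lingo2 and 224 of 309 of Gm16685 lay in nuclei with exactly 2.

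For Ms4a6c, a gene of macrophages, the selected nuclei stood at 60.6 and 63.6 normalised CPM untreated and 130 and 126 with losartan, and all other nuclei at 10.5 and 19.7 against 4.25 and 7.33. The groups did not overlap in either set and lay in opposite order. Within the selected nuclei, both losartan libraries lay above both untreated ones for 12.4% of the 5723 genes tested. The share of genes with opposite order in the 2 sets was not counted. The adjusted p of Ms4a6c (edgeR) was 0.0941 with 3 or more rule genes, 1 without untreated 2 and 0.129 without losartan 1. Tnfaip8 stood at 352 and 572 against 496 and 367 in the selected nuclei, with overlap, and at 590 and 398 against 1289 and 969.9 in all others.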

How the results depend on the processing

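The share of selected nuclei was lower with losartan under every setting run, with a log2 ratio from -2.595 to -0.51, and from -2.595 to -1.43 when 1 library was left out. Thinned to 500 UMIs, the log2 ratio to macrophage nuclei was 0.51 and that to B nuclei 0.55, with overlapping groups and 3 B nuclei in losartan 2. Leaving out 1 library gave -0.94 to -0.20 and -1.25 to 0.041. With 3 or more rule genes the log2 ratio to macrophage nuclei was -0.54, and the groups overlapped there and with Ptprc required. Within the selected nuclei, where 1 gene was called, there were 53 calls with no filter on low counts, 3 with DESeq2, 0 with 3 or more rule genes, 0 with Ptprc required and 0 to 163 with 1 library left out. In the whole kidney, with 0 calls, DESeq2 gave 1157 and leaving out 1 library 0 to 2. For the difference from other nuclei, with 17 calls, 3 or more rule genes gave 7, leaving out the 10% of nuclei richest in tubule UMIs gave 10, and leaving out 1 library 7 to 36, of which 5 to 10 were among the 17. In the selected nuclei, DESeq2 and the fit with no filter were run on 17376 genes, against 5723 in the main fit. In the whole kidney DESeq2 was run on 23655 genes, against 18360. The cause of these changes in the number of calls was not tested. The other settings left these counts within 1.5 times, and of the values of single named genes 208 kept direction and call, 72 lost the call and 21 gained it. With the replicate block there were 0 calls within the selected nuclei (Sntg1 had an adjusted p of 0.0605, edgeR) and 1934 in the whole kidney. Deviations of libraries with the same number correlated at -0.06 over genes in the selected nuclei and 0.36 in the whole kidney. With 2 groups of 2 this is too little to show a pairing, and the labels name none. Depth limits the losartan libraries most, at 32 and 37 nuclei. The common UMI minimum and the Ptprc requirement were chosen after seeing the data.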
